A study of Mus musculus with 6 samples.

Results

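Mature T cells of the mouse mitral valve are described here. They were 661 of the 53526 droplet barcodes kept, or 1.23%. A barcode was kept if it had at least 300 detected genes and at most 10% mitochondrial UMIs (unique molecular identifiers, each counting 1 captured transcript). A kept barcode was taken as a mature T cell if Cd3e, Cd3d, Cd3g, Trac, Trbc1 and Trbc2 gave at least 3 UMIs together, with at least 1 from the Cd3 genes. It also had to hold no UMI of Rag1, Rag2, Dntt or Ptcra, the genes of receptor rearrangement in thymocytes, and not both Cd4 and Cd8b1. At most 1 UMI of Cd79a, C1qa and Lyz2 was allowed, and Dcn, Col1a1 and Col1a2 had to stay under 0.5% of UMIs. Of 1253 barcodes that met the T cell gene threshold, 421 were dropped for rearrangement genes, 16 for Cd4 with Cd8b1, 6 for B or myeloid genes and 149 for fibroblast genes. The cells were chosen by these measured UMI counts, so the levels of the 6 T cell genes describe the choice and carry no test.

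The study compared mitral valves of K/B.g7 mice at 3, 8 and 25 weeks of age with those of B.g7 mice at the same ages, with 1 library per genotype and age. The KRN transgene, a rearranged T cell receptor, is present in K/B.g7 mice, and B.g7 mice without it served as controls. Mice of both genotypes carry the g7 MHC haplotype, and no other allele or agent is given in the labels. Valves were digested with an enzyme mix and live cells were sorted, so shares of cells are those that passed this preparation. The number of mice behind a library is not given, and a p-value then reflects the scatter among libraries alone, part of which may be technical. The 3 libraries of a genotype differ in age, so in the unpaired tests of shares that scatter includes age.

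T cells recognise peptides on MHC molecules through a receptor of an alpha and a beta chain, or a gamma and a delta chain, that signals through the CD3 proteins. Each chain joins a variable (V) segment to a constant region, and a rearranged transgene gives most developing T cells the same V segments. The KRN receptor pairs the V beta segment Trbv19 (V beta 6 in the older naming) with a V alpha segment of the Trav6 family (V alpha 4). It recognises a peptide of glucose-6-phosphate isomerase on the g7 class II molecule, and help from these cells to B cells gives the autoantibodies that cause arthritis and inflammation of the heart valves in this strain. CD4 T cells respond to class II and CD8 T cells to class I molecules. Naive T cells recirculate through lymph nodes, whereas effector and memory cells enter inflamed tissue.

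The V segments are shown because they check the genotype labels. The sequences are the V exons of the GENCODE annotation of GRCm38 (mm10), read 5′ to 3′ on the plus strand. Trbv19 lies at chr6:41178746-41179045 (its first 300 bases), Trav6d-4 at chr14:52753549-52753846 and its nearest copy Trav6-4 at chr14:53454487-53454784. The copies share 97.7% of bases, and capitals mark the 7 bases at which they differ. Of 15 Trav6 genes only 2 had a UMI in mature T cells, Trav6d-4 (155) and Trav6n-6 (1), so none was counted for Trav6-4. The next nearest member, Trav6-1, is 88.6% identical to Trav6d-4.
Trbv19: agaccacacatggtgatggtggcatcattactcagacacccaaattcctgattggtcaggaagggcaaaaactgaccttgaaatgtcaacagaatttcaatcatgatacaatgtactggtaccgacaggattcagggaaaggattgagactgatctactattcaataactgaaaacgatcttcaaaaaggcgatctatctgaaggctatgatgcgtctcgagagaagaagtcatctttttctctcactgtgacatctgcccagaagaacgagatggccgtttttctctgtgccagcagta
Trav6d-4: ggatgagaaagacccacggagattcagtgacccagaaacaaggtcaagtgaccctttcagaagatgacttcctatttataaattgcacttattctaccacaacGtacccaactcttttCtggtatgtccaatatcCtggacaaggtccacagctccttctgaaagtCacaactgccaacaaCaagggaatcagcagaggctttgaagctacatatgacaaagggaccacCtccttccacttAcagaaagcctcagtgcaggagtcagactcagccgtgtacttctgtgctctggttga
Trav6-4: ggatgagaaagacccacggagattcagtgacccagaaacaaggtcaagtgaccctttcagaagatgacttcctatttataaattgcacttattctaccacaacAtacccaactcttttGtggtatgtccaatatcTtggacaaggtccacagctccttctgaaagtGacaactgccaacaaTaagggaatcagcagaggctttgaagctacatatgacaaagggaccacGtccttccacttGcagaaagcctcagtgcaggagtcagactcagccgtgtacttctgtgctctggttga

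The V segments went against the genotype label in 3 of the 6 libraries, those labelled K/B.g7 at 25 weeks and B.g7 at 3 and 8 weeks. In mature T cells at 8 weeks, Trbv19 gave 88 of 122 Trbv UMIs (72.1%, exact 95% interval 63.3 to 79.9) in the library labelled K/B.g7, against 31 of 37 (83.8%, 68.0 to 93.8) in the library labelled B.g7. Trav6d-4 gave 87 of 119 Trav UMIs (73.1%) in the 8-week library labelled K/B.g7 and 65 of 85 (76.5%) in the one labelled B.g7. Both 8-week libraries thus held the same dominant V segments, whatever the label. At 25 weeks, Trbv19 gave 0 of 17 Trbv UMIs in the library labelled K/B.g7, with an exact upper bound of 19.5% and 17.6% by a floor of 3 counts, and 0 of 10 in the one labelled B.g7, with an exact upper bound of 30.8% and 30% by that floor. Trav6d-4 gave 0 of 14 Trav UMIs in the 25-week library labelled K/B.g7 and 0 of 11 in the one labelled B.g7. At 3 weeks, Trbv19 gave 1 of 1 Trbv UMI in mature T cells labelled K/B.g7 and 3 of 3 in those labelled B.g7.

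The same split appeared over all kept barcodes of each library. Trav6d-4 gave 28 of 28, 153 of 192 and 0 of 59 Trav UMIs in the libraries labelled K/B.g7 at 3, 8 and 25 weeks. It gave 28 of 28, 91 of 113 and 0 of 53 in those labelled B.g7. Trac was at 22.5, 24.9 and 2.12 CPM (counts per 1000000 UMIs) outside the T cell classes in libraries labelled K/B.g7 at the same ages, and at 37.4, 24.1 and 2.21 CPM in those labelled B.g7. It was lower in the 2 libraries of 25 weeks than in the other 4, and Trbc1 there was at 5.63 CPM (labelled K/B.g7) and 10.9 CPM (labelled B.g7). Trbv19 gave 6 of 8, 140 of 183 and 3 of 82 Trbv UMIs over all kept barcodes labelled K/B.g7, and 9 of 9, 46 of 53 and 4 of 68 over those labelled B.g7. These V segments thus dominated in the 4 libraries of 3 and 8 weeks and in neither of 25 weeks. In what follows a genotype is the label of the library, and a direction between genotypes is one between labels. Differences between 25 and 8 weeks cannot be told apart from the presence of the transgene V segments.

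**Figure D1:**
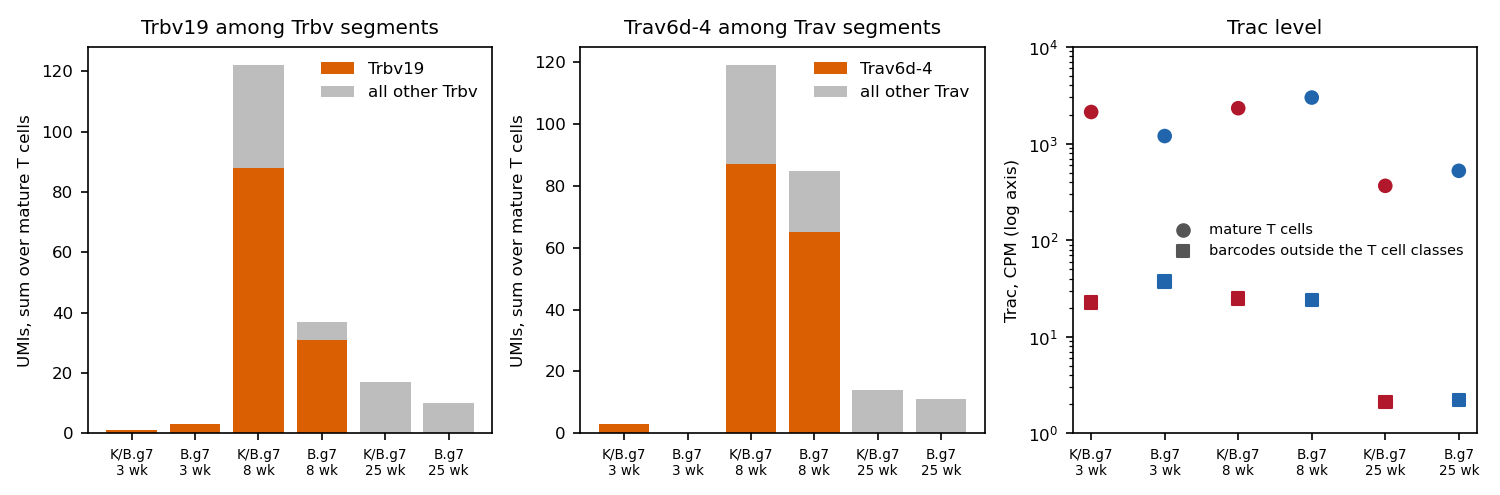
UMIs of Trbv19 and of all other Trbv segments (left), of Trav6d-4 and all other Trav segments (middle), summed over mature T cells of each library, and Trac in CPM on a log axis (right; circles mature T cells, squares barcodes outside the T cell classes; red K/B.g7, blue B.g7). Trbv19 gave 88 of 122 UMIs at 8 weeks under the K/B.g7 label and 31 of 37 under the B.g7 label, and none at 25 weeks under either.

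T cell receptor use by the cells followed the same line. At least 1 UMI of Trbv19 or Trav6d-4 was found in 3, 104 and 0 mature T cells labelled K/B.g7 at 3, 8 and 25 weeks, against 3, 60 and 0 of those labelled B.g7. At 8 weeks these were 44.4% of the cells labelled K/B.g7 and 43.2% of those labelled B.g7. Over both libraries of an age, Trav6d-4 was at 109 CPM at 8 weeks and gave 0 of 528652 UMIs at 25 weeks, at least 19.1-fold lower by a floor of 3 counts over the age. Trbv19 was at 85.0 CPM at 8 weeks and at least 15.0-fold lower at 25 weeks by the same floor. Trac itself was at 2123, 2324 and 365 CPM in mature T cells labelled K/B.g7 at 3, 8 and 25 weeks, and at 1197, 2996 and 522 CPM in those labelled B.g7. The 25-week libraries were the lowest under each label. No Trac UMI was found in 26.3%, 6.84% and 61.6% of the cells labelled K/B.g7 and in 36.4%, 8.63% and 39.2% of those labelled B.g7. Trbc1, 1 of the pair of near-identical beta constant genes, gave 15.3%, 21.97% and 40.3% of Trbc1 and Trbc2 UMIs in libraries labelled K/B.g7, against 1.89%, 16.8% and 32.3% in those labelled B.g7. The share averaged 25.9% ± 12.9 under the K/B.g7 label, against 17.01% ± 15.2 under the B.g7 label (SD, n = 3 each; exact permutation p = 0.5, two-sided, unpaired). It was higher under the K/B.g7 label in 3 of 3 age pairs, and reads could be split between the copies.

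The defining markers differed in detection with age. Cd3e was found in 31.6%, 74.4% and 65.9% of the cells labelled K/B.g7 at 3, 8 and 25 weeks, and in 0%, 73.4% and 66.7% of those labelled B.g7. The 11 cells labelled B.g7 at 3 weeks thus had no Cd3e UMI. Trac was found in 73.7%, 93.2% and 38.4% of the cells labelled K/B.g7 and in 63.6%, 91.4% and 60.8% of those labelled B.g7, lowest at 25 weeks. A UMI of the list of developing thymocyte genes was found in 42.1%, 39.3% and 47.1% of the cells labelled K/B.g7 and in 45.5%, 43.9% and 70% of those labelled B.g7. Itm2a and Tox of that list are also expressed by mature T cells. The cells of 25 weeks, most of which held such a UMI under the B.g7 label, are called mature by their rule alone. Cd3g, another CD3 chain, was found in all 19 cells labelled K/B.g7 and all 11 cells labelled B.g7 at 3 weeks. Of fibroblast barcodes, which should lack it, between 0.156% and 1.21% had a Cd3e UMI, at median depths of 3029 to 5995 UMIs. At 3 weeks Areg, which codes for the growth factor amphiregulin, was at 2005 CPM (labelled K/B.g7) and 1795 CPM (labelled B.g7), against 53.6 to 198 CPM in the other 4 libraries. Il5, a cytokine of type 2 immunity, was at 914 CPM in the 3-week cells labelled K/B.g7 and 532 CPM in those labelled B.g7, and between 0 and 6.70 CPM in the others. Of these Il5 UMIs at 3 weeks, 17 of 31 under the K/B.g7 label and 7 of 8 under the B.g7 label came from 1 cell each. Il1rl1 or Areg was detected in 9 of 19 cells labelled K/B.g7 and 7 of 11 labelled B.g7 at 3 weeks. Gata3, a transcription factor of type 2 lymphocytes, and Arg1 were highest there too, at 383 and 236 CPM under the K/B.g7 label, against 266 and 266 CPM under the B.g7 label. T cells and innate lymphoid cells share these genes, so the 30 barcodes of 3 weeks are called by their rule and not by a T cell subset.

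The libraries held 15196750 to 69152541 UMIs, and mature T cells gave 15042 to 837049 of them. Median UMIs per mature T cell were 1656, 2970.5 and 1378.5 at 3, 8 and 25 weeks in libraries labelled K/B.g7, against 1313, 3286 and 2141.5 in those labelled B.g7. Scores of the doublet caller marked 31 of the 661 cells. The libraries shared 348 barcode sequences, none of which was a mature T cell in more than 1 library. At the threshold of 3 T cell gene UMIs lay 1, 7 and 10 cells labelled K/B.g7 and 0, 4 and 5 labelled B.g7, and barcodes with 2 such UMIs that met all else numbered 1, 2 and 15 under the K/B.g7 label, against 0, 11 and 4 under the B.g7 label. Genes of other cell types were present. The fibroblast list (10 genes) summed to 531, 1845 and 4848 CPM under the K/B.g7 label, against 133, 1688 and 2052 CPM under the B.g7 label. The macrophage list (14 genes) lay between 236 and 417 CPM under the K/B.g7 label and between 66.5 and 448 CPM under the B.g7 label. Of its genes Ccr2, which T cells also express, Ly6c2, Cd74 and H2-Aa averaged 178, 51.3, 44.9 and 12.1 CPM over the 6 libraries, and Csf1r, Cd14 and Adgre1 were at 0 in at least 5 libraries each. A UMI of the list was found in 42.1%, 56.8% and 26.8% of the cells labelled K/B.g7 at 3, 8 and 25 weeks and in 9.09%, 60.4% and 31.7% of those labelled B.g7. The endothelial list (7 genes) lay between 0 and 442 CPM under the K/B.g7 label and between 0 and 530 CPM under the B.g7 label. The B lineage list (9 genes) lay between 88.4 and 374 CPM under the K/B.g7 label and between 167 and 199 CPM under the B.g7 label. Of its genes Ighm, Ebf1, Igkc and Cd79b averaged 70.1, 47.3, 46.1 and 20.1 CPM over the 6 libraries, Pax5 was at 0 throughout, and Igkc was found in 49 cells labelled K/B.g7 and 14 labelled B.g7 at 8 weeks. A UMI of this list was found in 15.8%, 31.6% and 25.4% of the cells labelled K/B.g7 by age and in 27.3%, 26.6% and 23.3% of those labelled B.g7.

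Mature T cells were most frequent at 8 weeks under each label. They were 0.332% (exact 95% interval 0.200 to 0.518), 2.51% (2.20 to 2.85) and 0.685% (0.576 to 0.809) of kept barcodes in libraries labelled K/B.g7 at 3, 8 and 25 weeks. They were 0.291% (0.146 to 0.521), 2.41% (2.03 to 2.84) and 1.37% (1.13 to 1.63) in those labelled B.g7. The intervals overlapped at 3 and 8 weeks, and at 25 weeks the share was lower in the library labelled K/B.g7, a value with no replicate. The means were 1.18% ± 1.17 under the K/B.g7 label, against 1.36% ± 1.06 under the B.g7 label (SD, n = 3 each; exact permutation p = 1, two-sided, smallest possible 0.1). Intervals cover counting error only, and each SD spans the 3 ages. The lower share at 25 weeks depended on cells with a UMI of the list of developing thymocyte genes. Without them it was 0.362% (0.284 to 0.455) under the K/B.g7 label and 0.410% (0.287 to 0.567) under the B.g7 label, with overlapping intervals. Among barcodes with a UMI of Ptprc, the pan-leukocyte gene, mature T cells were 14.3%, 24.9% and 15.1% under the K/B.g7 label, against 16.3%, 41.9% and 18.8% under the B.g7 label. Thymocyte-like barcodes, which hold rearrangement genes or Cd4 with Cd8b1, were 3, 4 and 113 under the K/B.g7 label, against 0, 0 and 241 under the B.g7 label. They were thus found almost only at 25 weeks, and more than the mature T cells in the B.g7 library of that age.

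CD4, CD8 and gamma delta cells were separated by detection of Cd4 without Cd8a or Cd8b1, of Cd8a or Cd8b1 without Cd4, and of Trdc, the delta constant gene, whatever the others. Cd8 cells were 2 of 19, 81 of 234 and 38 of 138 mature T cells labelled K/B.g7 at 3, 8 and 25 weeks, and 0 of 11, 42 of 139 and 44 of 120 labelled B.g7. At 8 and 25 weeks these were 34.6% and 27.5% under the K/B.g7 label, against 30.2% and 36.7% under the B.g7 label, with overlapping intervals at each age. Cd4 cells were 0, 36 and 3 under the K/B.g7 label, against 0, 8 and 14 under the B.g7 label. Their share was 15.4% under the K/B.g7 label, against 5.76% under the B.g7 label at 8 weeks, and 2.17% under the K/B.g7 label, against 11.7% under the B.g7 label at 25 weeks. The order of the labels thus turned round between 8 and 25 weeks. Cells thinned to 1000 UMIs kept it, with 8.48% under the K/B.g7 label, against 2.24% under the B.g7 label at 8 weeks, and 1.89% under the K/B.g7 label, against 6.60% under the B.g7 label at 25 weeks, over the cells deep enough, 224 of 234 (K/B.g7 label) and 134 of 139 (B.g7 label) at 8 weeks and 106 of 138 (K/B.g7 label) and 106 of 120 (B.g7 label) at 25 weeks. Cells with a UMI of the list of developing thymocyte genes were also left out. Cd4 cells at 25 weeks were then 1 of 73 (0.0347 to 7.40%) under the K/B.g7 label and 3 of 36 (1.75 to 22.5%) under the B.g7 label. These intervals overlapped. Of fibroblast barcodes, at most 0.207% had a Cd4 UMI and at most 0.511% a Cd8b1 UMI. Neither Cd4, Cd8a nor Cd8b1 was detected in 89.5%, 50% and 68.8% of the cells under the K/B.g7 label and in 100%, 64.03% and 50.8% under the B.g7 label.

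Trdc was detected in 15.8%, 8.12% and 20.3% of mature T cells labelled K/B.g7 at 3, 8 and 25 weeks, and in 9.09%, 19.4% and 14.2% of those labelled B.g7. Thinned to 1000 UMIs, the shares at 8 and 25 weeks were 7.14% and 20.8% under the K/B.g7 label, against 11.9% and 11.3% under the B.g7 label. Trac was detected beside Trdc in all 19 such cells labelled K/B.g7 and all 27 labelled B.g7 at 8 weeks. At 25 weeks this held for 3 of 28 cells under the K/B.g7 label, against 5 of 17 under the B.g7 label, and the other 25 and 12 cells had no Trac UMI. Trbv19 or Trav6d-4 was found in 9 of the 19 Trdc cells labelled K/B.g7 and 15 of the 27 labelled B.g7 at 8 weeks. They were also found in 38 of 81 Cd8 cells labelled K/B.g7 and 18 of 42 labelled B.g7 at 8 weeks, and in 18 of 36 Cd4 cells labelled K/B.g7 and 4 of 8 labelled B.g7. Cd163l1, a gene of gamma delta T cells that make interleukin 17, was at 118, 94.4 and 222 CPM over all mature T cells labelled K/B.g7 at 3, 8 and 25 weeks and at 66.5, 126 and 208 CPM under the B.g7 label.

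Foxp3, the transcription factor of regulatory T cells, was detected in 0, 19 and 2 mature T cells labelled K/B.g7 and in 0, 6 and 0 labelled B.g7. At 8 weeks these were 8.12% (4.96 to 12.4) under the K/B.g7 label, against 4.32% (1.60 to 9.16) under the B.g7 label, with overlapping intervals. Over the 3 ages, the shares of Cd4, Cd8, Trdc and Foxp3 cells differed by 0.0455, 1.93, 0.506 and 1.75 percentage points between K/B.g7 and B.g7 (exact permutation p between 0.7 and 1, two-sided, adjusted p = 1 over 7 comparisons). The share of Trbv19 among Trbv UMIs averaged 57.4% under the K/B.g7 label, against 61.3% under the B.g7 label (exact permutation p = 1).

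**Figure D2:**
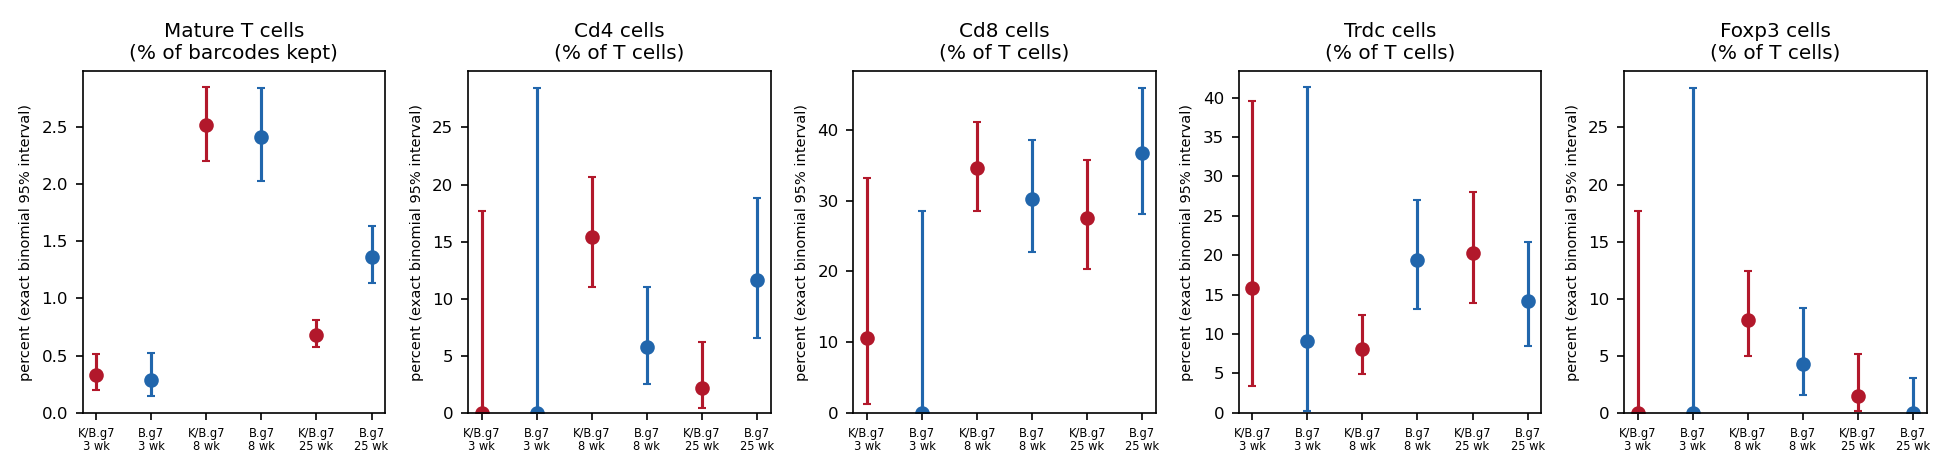
Mature T cells as a percentage of kept barcodes, and Cd4, Cd8, Trdc and Foxp3 cells as a percentage of mature T cells, in each of the 6 libraries by age (red K/B.g7, blue B.g7; bars are exact binomial 95% intervals). The share of mature T cells reached 2.51% under the K/B.g7 label, against 2.41% under the B.g7 label at 8 weeks, and the Cd4 value of the K/B.g7 label lay above that of B.g7 at 8 weeks and below it at 25 weeks.

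Ccl5 and Nkg7 were at higher levels in Cd8 cells than in cells with neither Cd4 nor Cd8 genes, in each library of 8 and 25 weeks. Ccl5, a chemokine that draws T cells and monocytes, was at 11387 and 14882 CPM in Cd8 cells labelled K/B.g7 at 8 and 25 weeks, and at 15382 and 19518 CPM in those labelled B.g7. In cells with neither it was at 4740 and 3442 CPM under the K/B.g7 label, against 5246 and 3690 CPM under the B.g7 label. In Cd4 cells Ccl5 was at 192 and 0 CPM under the K/B.g7 label, against 345 and 425 CPM under the B.g7 label. Nkg7, a granule protein, was at 2391 and 1039 CPM in Cd8 cells labelled K/B.g7 and at 2397 and 1090 CPM in those labelled B.g7, so the pairs of an age lay close together. In cells with neither Nkg7 was at 679 and 313 CPM under the K/B.g7 label, against 797 and 326 CPM under the B.g7 label. Gzma, which codes for granzyme A, was at 307 and 2507 CPM in Cd8 cells labelled K/B.g7 and at 236 and 2787 CPM in those labelled B.g7. Both 25-week libraries were above both 8-week ones, and at 8 weeks under the B.g7 label cells with neither held more, 459 CPM. Ifng was at 668 and 448 CPM in Cd8 cells labelled K/B.g7 and at 851 and 386 CPM in those labelled B.g7. Ccl5 was detected in 47.9% and 23.9% of all mature T cells labelled K/B.g7 at 8 and 25 weeks and in 54.0% and 20.8% of those labelled B.g7, and thinned to 1000 UMIs in 44.2% and 25.5% under the K/B.g7 label, against 53.0% and 22.6% under the B.g7 label. Il17a was at 550 and 157 CPM in Trdc cells labelled K/B.g7, against 43.8 and 139 CPM in those labelled B.g7, and in 8-week B.g7 cells all 5 Il17a UMIs came from 1 cell. A count model of genotype in Cd8 cells over 8 and 25 weeks called 0 of 1901 genes (0%) by edgeR's quasi-likelihood test, with 76 at an unadjusted p under 0.05, and DESeq2 called 2. Cd4 cells numbered at least 10 in both libraries at no age, and no such model could be fitted for them.

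Between genotype labels, 5 genes were higher and 0 lower under the K/B.g7 label out of 4253 tested (0.118% called, 132 at an unadjusted p under 0.05; edgeR quasi-likelihood test, blocked by age, at a false discovery rate, FDR, under 0.05). None of the 5 is known as specific to T cells. Acta2, smooth muscle actin, was at 88.4, 25.1 and 600.0 CPM under the K/B.g7 label at 3, 8 and 25 weeks and at 0, 10.7 and 56.9 CPM under the B.g7 label, higher under the K/B.g7 label at each age (log2 fold change 2.73 ± 0.53 SE, FDR 0.0299). It was named among genes of 1 sign at all ages, so that agreement was fixed by the choice. At 3 weeks Acta2 had 3 UMIs from 2 cells under the K/B.g7 label and 0 under the B.g7 label. At 25 weeks 57 of its 138 UMIs under the K/B.g7 label came from 1 cell. Tagln, another smooth muscle gene, was at 0, 29.9 and 578 CPM under the K/B.g7 label, against 66.5, 10.7 and 50.2 CPM under the B.g7 label. Prg4, which codes for the lubricant lubricin, was at 0, 47.8 and 117 CPM under the K/B.g7 label, against 0, 5.33 and 10.0 CPM under the B.g7 label. Hbb-bs, beta globin, was at 0, 1085 and 34.8 CPM under the K/B.g7 label, against 66.5, 33.8 and 26.8 CPM under the B.g7 label, and 825 of its 908 UMIs at 8 weeks came from 1 cell labelled K/B.g7. Hist1h2ap, a histone of dividing cells, was at 0, 302 and 165 CPM under the K/B.g7 label, against 0, 65.7 and 40.2 CPM under the B.g7 label. For 4 of the 5, all but Hist1h2ap, the mean level was higher in fibroblast barcodes than in mature T cells, and their part in the result was not tested. The count was 0 without the K/B.g7 or the B.g7 library of 3 weeks. It was 49 of 5648 (7 higher, 42 lower) without the K/B.g7 library of 25 weeks and 48 of 5229 (7 higher, 41 lower) without the B.g7 one. Most calls were then lower under the K/B.g7 label, and 1 of the 5 genes was among them in each case. With no filter on low counts 18 were higher and 37 lower of 14948 tested. DESeq2 called 0. Over the 3 libraries whose V segments fit the label, Acta2 had a log2 fold change of -0.73. Those libraries are K/B.g7 at 3 and 8 weeks and B.g7 at 25 weeks, so genotype and age cannot be told apart there.

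The genes with the smallest p among those lower under the K/B.g7 label at all ages did not pass. Sox4, a transcription factor of lymphocyte development, was at 147, 9.56 and 60.9 CPM under the K/B.g7 label at 3, 8 and 25 weeks and at 532, 62.2 and 177 CPM under the B.g7 label (log2 fold change -1.96 ± 0.45 SE, FDR 0.0800). Of the Sox4 UMIs labelled B.g7, 25 of 35 at 8 weeks and 5 of 8 at 3 weeks came from 1 cell each. Itm2a was at 29.5, 17.9 and 130 CPM under the K/B.g7 label, against 199, 211 and 181 CPM under the B.g7 label (-2.02 ± 0.51, FDR 0.132), and 65 of the 119 Itm2a UMIs labelled B.g7 at 8 weeks came from 1 cell. Neurl3, Fosb and Rasal3 had log2 fold changes of -1.21, -1.25 and -1.20. The 5 were chosen among genes lower under the K/B.g7 label in all 3 pairs of an age, so that agreement was fixed by the choice. At 3 weeks Rasal3 had 2 UMIs under each label.

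Effector and regulatory genes showed no call by genotype. The median log2 fold change was 0.037 over all genes tested, of which 53.8% were above 0. Of the regulatory T cell list, 7 of 7 tested genes were above 0, with a median of 0.89 and 0 called. Within it Tnfrsf4, the costimulatory receptor OX40, was at 88.4, 503 and 26.1 CPM under the K/B.g7 label, against 66.5, 165 and 26.8 CPM under the B.g7 label, and Il2ra, the interleukin 2 receptor alpha chain, at 177, 130 and 17.4 CPM under the K/B.g7 label, against 266, 32.0 and 33.5 CPM under the B.g7 label. Of the immediate early and heat shock list 0 of 14 were above 0, with a median of -0.35 and 0 called. These genes respond to handling and digestion of tissue, and Hspa1a was at 2300, 3930 and 4579 CPM under the K/B.g7 label, against 13163, 5874 and 3994 CPM under the B.g7 label. Of 9 tested gamma delta and innate-like genes 1 was above 0 and 0 were called. Of 14 cytotoxic genes 7 were above 0 and 0 were called, and Ccl5 had a log2 fold change of -0.06 ± 0.39 SE. The CD3 and receptor genes, which the choice of cells used, had 4 of 7 above 0 and 0 called. Of the other lists, only the red cell list held a call, Hbb-bs.

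Between 25 and 8 weeks, 51 of 4253 genes passed (1.2%), 17 higher (0.4%) and 34 lower (0.799%) at 25 weeks, in the same fit with genotype as a block. The 8-week libraries held the transgene V segments and the 25-week ones did not, under either label. Naive and thymocyte genes were among those higher, and costimulatory receptors, inhibitory receptors and chemokines among those lower. The mean level was higher in mature T cells than in fibroblast barcodes for 36 of the 51. For the other 15, 5 higher and 10 lower, fibroblast barcodes were higher. The calls rested on few libraries. Without the 3-week B.g7 library the count was 0 of 5625 (509 at an unadjusted p under 0.05, smallest FDR 0.0824). Over the 4 libraries of 8 and 25 weeks alone it was 3 of 5441, namely Ccr9, Ccl21a and Trac. Trac is among the genes that chose the cells. Leaving out each other library in turn gave 27 to 51 calls, of which 8 to 25 were among the 51: 27 without the 3-week K/B.g7 library, 33 and 30 without the 8-week K/B.g7 and B.g7 libraries, 51 and 40 without the 25-week K/B.g7 and B.g7 libraries.

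Of naive T cell genes, Lef1, Tcf7 and Satb1 rose. Lef1, a transcription factor of naive and developing T cells, was at 226 CPM (K/B.g7 label) and 398 CPM (B.g7 label) at 25 weeks, against 41.8 CPM (K/B.g7 label) and 44.4 CPM (B.g7 label) at 8 weeks (log2 fold change 2.73 ± 0.42 SE, FDR 7.97e-05). Tcf7, its partner in the same program, was at 283 CPM (K/B.g7 label) and 439 CPM (B.g7 label) at 25 weeks, against 55.0 CPM (K/B.g7 label) and 80.0 CPM (B.g7 label) at 8 weeks. Satb1, a chromatin organiser of T cell development, was at 500.04 CPM (K/B.g7 label) and 623 CPM (B.g7 label) at 25 weeks, against 98.0 CPM (K/B.g7 label) and 74.6 CPM (B.g7 label) at 8 weeks. The values of 25 and 8 weeks did not overlap for these 3 genes, which were called on the same values. How many of all genes tested had no overlap was not counted, so this adds nothing to the calls. At 3 weeks Lef1 was at 118 CPM (K/B.g7 label, 4 UMIs) and 133 CPM (B.g7 label, 2 UMIs). Satb1 was at 354 CPM (K/B.g7 label, 12 UMIs) and 266 CPM (B.g7 label, 4 UMIs) there. These 3-week values lay above those of 8 weeks and below those of 25 weeks. Of the naive and central memory list, 10 of 11 tested genes were above 0 with a median of 1.05, against 49.8% and a median of -0.002 over all genes, and these 3 were called. Ccr7, S1pr1, Il7r and Klf2, other genes of the list, had log2 fold changes of 1.05, 0.99, 0.37 and 0.36 and did not pass.

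Several genes of developing thymocytes rose as well. Ccr9, the chemokine receptor of thymocytes and gut-homing T cells, was at 130 CPM (K/B.g7 label) and 218 CPM (B.g7 label) at 25 weeks, against 2.39 CPM (K/B.g7 label) and 5.33 CPM (B.g7 label) at 8 weeks (5.34 ± 0.62 SE, FDR 2.65e-06). It was found in 23 cells labelled K/B.g7 and 34 labelled B.g7 at 25 weeks, against 2 (K/B.g7 label) and 1 (B.g7 label) at 8 weeks. Cd24a, a surface protein of immature lymphocytes, Arpp21, a gene of immature thymocytes, and Myb, a transcription factor of progenitors, also rose, by 2.89, 5.46 and 2.87 on the log2 scale. Of the thymocyte list outside the rule 7 of 7 tested genes were above 0 and 3 were called, Ccr9, Cd24a and Arpp21. Itm2a and Tox of the list did not pass (FDR 0.713 and 0.747). Summed, the 11 genes of that list were at 501, 198 and 696 CPM under the K/B.g7 label at 3, 8 and 25 weeks and at 399, 350 and 958 CPM under the B.g7 label. Barcodes of the thymocyte-like class were 113 (K/B.g7 label) and 241 (B.g7 label) at 25 weeks, against 4 (K/B.g7 label) and 0 (B.g7 label) at 8 weeks. Leaving out every mature T cell with a UMI of the list removed Ccr9, Cd24a and Arpp21 by construction and left 1965 genes tested. It left 73 of 138 cells (K/B.g7 label) and 36 of 120 cells (B.g7 label) at 25 weeks. Of these genes 12 were called, 11 of them among the 51, and Tnfrsf4, Acta2, Trav6d-4 and Trbv19 were among the 11. Lef1 had a log2 fold change of 1.86 there (FDR 0.0917) and Satb1 one of 1.14 (FDR 0.620), and neither passed.

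Smooth muscle and lymphatic endothelial genes were called as well. Acta2, Tagln and Myl9 rose by 3.87, 3.61 and 4.26 on the log2 scale, and at 25 weeks Myl9 was at 257 CPM (K/B.g7 label) and 43.5 CPM (B.g7 label), against 8.36 CPM (K/B.g7 label) and 5.33 CPM (B.g7 label) at 8 weeks. Ccl21a, a chemokine of lymphatic vessels and lymphoid stroma, was at 339 CPM (K/B.g7 label) and 83.7 CPM (B.g7 label) at 25 weeks, against 14.3 CPM (K/B.g7 label) and 1.78 CPM (B.g7 label) at 8 weeks. Of its UMIs at 25 weeks, 75 of 78 under the K/B.g7 label and 24 of 25 under that of B.g7 came from 1 cell each. Mmrn1, a gene of lymphatic endothelium, was at 52.2 and 43.5 CPM at 25 weeks under the K/B.g7 and the B.g7 label, against 3.58 CPM (K/B.g7 label) and 0 CPM (B.g7 label) at 8 weeks, and all 12 and all 13 of its 25-week UMIs came from 1 cell each. The summed fibroblast list was higher at 25 than at 8 weeks under each label, and Gsn was called from it. Their part in these calls was not tested.

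**Figure D3:**
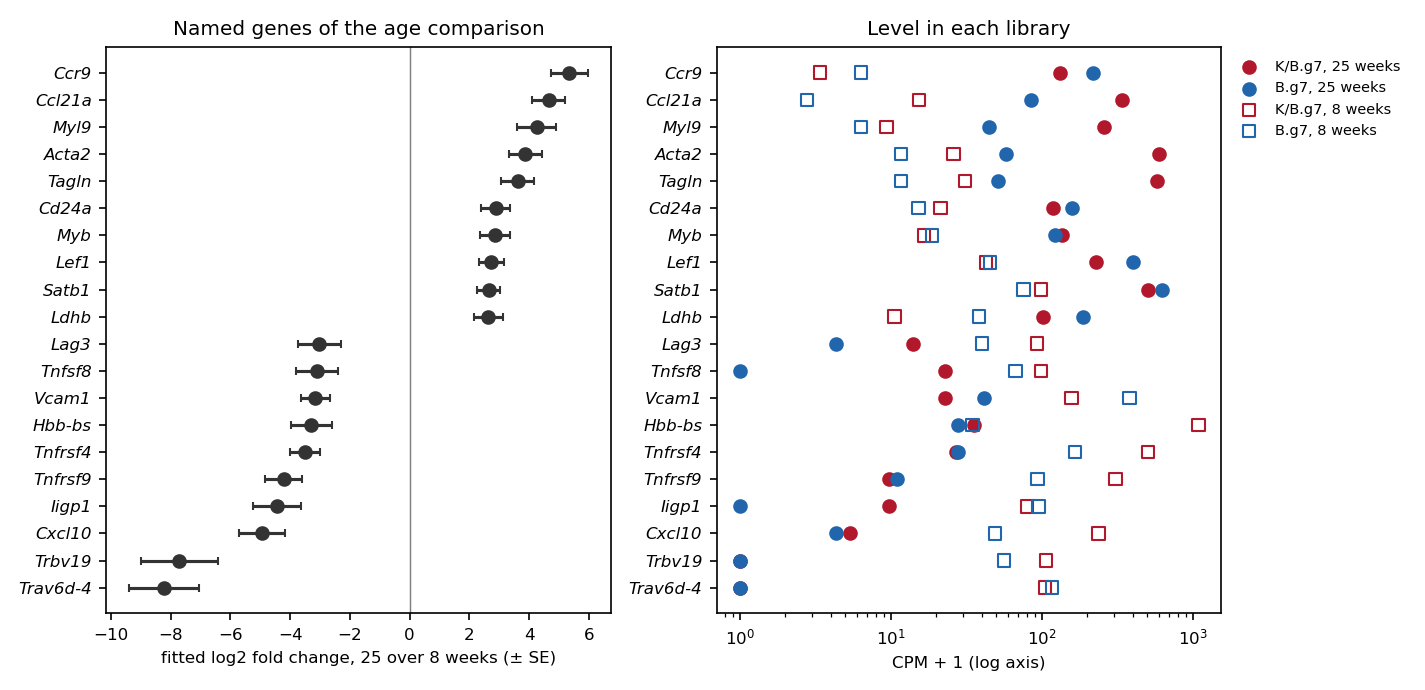
Fitted log2 fold change of 25 over 8 weeks with its standard error (left) and level in each library as CPM plus 1 on a log axis (right; filled circles 25 weeks, open squares 8 weeks; red K/B.g7, blue B.g7) for the 10 genes named in each direction. Ccr9 lies at 5.34 and Trav6d-4 at -8.22, whose size is not bounded since no UMI was seen at 25 weeks.

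Costimulatory receptors Tnfrsf4, Tnfrsf9 and Tnfrsf18 fell. Tnfrsf4 was at 26.1 CPM (K/B.g7 label) and 26.8 CPM (B.g7 label) at 25 weeks, against 503 CPM (K/B.g7 label) and 165 CPM (B.g7 label) at 8 weeks (log2 fold change -3.51 ± 0.50 SE, FDR 4.37e-05). Tnfrsf9, or 4-1BB, was at 8.70 CPM (K/B.g7 label) and 10.0 CPM (B.g7 label) at 25 weeks, against 307 CPM (K/B.g7 label) and 92.4 CPM (B.g7 label) at 8 weeks. Tnfrsf18, the receptor GITR, fell by 1.64 on the log2 scale, and Tnfsf8, the ligand of CD30, by 3.11. The values of 25 and 8 weeks did not overlap for Tnfrsf4 and Tnfrsf9, which were called on those values, and the share over all genes was not counted. At 3 weeks Tnfrsf9 had 0 UMIs under either label. Ctla4, the inhibitory receptor of activated and regulatory T cells, was at 60.9 CPM (K/B.g7 label) and 36.8 CPM (B.g7 label) at 25 weeks, against 430 CPM (K/B.g7 label) and 174 CPM (B.g7 label) at 8 weeks (-2.61 ± 0.45, FDR 0.000316). Of the regulatory T cell list 4 of 7 tested genes fell (Ctla4, Tnfrsf4, Tnfrsf9 and Tnfrsf18), 1 of 7 was above 0 and the median was -1.64. Activated conventional T cells make these 4 receptors too, and Foxp3 was too sparse to be tested. Pdcd1, or PD-1, was at 69.6 CPM (K/B.g7 label) and 87.1 CPM (B.g7 label) at 25 weeks, against 332 CPM (K/B.g7 label) and 215 CPM (B.g7 label) at 8 weeks. Of 6 tested inhibitory receptor and exhaustion genes Pdcd1, Lag3 and Rgs16 fell, and Tox was above 0 at 0.80 and did not pass. Icos and Il2ra had log2 fold changes of -1.12 and -1.48 and did not pass.

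Chemokine and cytokine genes fell in part. Ccl3, a chemokine of activated T cells, was at 73.9 CPM (K/B.g7 label) and 43.5 CPM (B.g7 label) at 25 weeks, against 330 CPM (K/B.g7 label) and 233 CPM (B.g7 label) at 8 weeks (-2.34 ± 0.44 SE, FDR 0.00121). Ccl4, a related chemokine, fell by 1.40 on the log2 scale. Areg was at 60.9 CPM (K/B.g7 label) and 53.6 CPM (B.g7 label) at 25 weeks, against 198 CPM (K/B.g7 label) and 172 CPM (B.g7 label) at 8 weeks, and fell by 1.75. Of the cytokine and chemokine list 4 of 15 tested genes fell, Ccl3, Ccl4, Areg and Tnfsf8. Ccl5 did not pass, at 6053 CPM (K/B.g7 label) and 8866 CPM (B.g7 label) at 25 weeks, against 6230 CPM (K/B.g7 label) and 7593 CPM (B.g7 label) at 8 weeks (0.04 ± 0.41, FDR 0.996), and neither did Ifng (-0.24 ± 0.36). Gzma rose, to 726 CPM (K/B.g7 label) and 1108 CPM (B.g7 label) at 25 weeks, against 226 CPM (K/B.g7 label) and 361 CPM (B.g7 label) at 8 weeks (1.58 ± 0.36, FDR 0.0126). Gzmb, Gzmk and Nkg7 had log2 fold changes of -0.62, -0.75 and -1.28 and did not pass. Stat4, which relays interleukin 12 signals in Th1 cells, fell by 1.75, while Cxcr3, the receptor of Th1 and effector CD8 cells, and Cxcr6, of tissue T cells, had changes of -1.87 and -0.52 and did not pass. Ccr2, Cd44 and Il17a had changes of -0.33, -0.51 and 0.27 and did not pass. Tnf and Itgae were too sparse to be tested.

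Of interferon response and MHC class I genes, Iigp1 of the interferon gamma list and Cxcl10 fell. Iigp1, a GTPase induced by interferon gamma, was at 8.70 CPM (K/B.g7 label) and 0 CPM (B.g7 label) at 25 weeks, against 78.8 CPM (K/B.g7 label) and 94.2 CPM (B.g7 label) at 8 weeks (-4.44 ± 0.82 SE, FDR 0.00101). The Iigp1 values of 8 weeks were 66 UMIs from 27 cells labelled K/B.g7 and 53 UMIs from 6 cells labelled B.g7. Cxcl10, a chemokine of the same response, was at 4.35 CPM (K/B.g7 label) and 3.35 CPM (B.g7 label) at 25 weeks, against 237 CPM (K/B.g7 label) and 48.0 CPM (B.g7 label) at 8 weeks. At 8 weeks 81 of the 198 Cxcl10 UMIs labelled K/B.g7 came from 1 cell, and both genes had a higher mean level in fibroblast barcodes than in mature T cells. Of the interferon gamma list 0 of 10 tested genes were above 0, with a median of -1.33 and 1 lower, Iigp1. Of MHC class I genes 0 of 15 were above 0, with a median of -1.03 and 0 called. H2-K1, a class I heavy chain, was at 1170 CPM (K/B.g7 label) and 1490 CPM (B.g7 label) at 25 weeks, against 2628 CPM (K/B.g7 label) and 2829 CPM (B.g7 label) at 8 weeks (-1.10 ± 0.35, FDR 0.164). B2m, its light chain, was at 1317 and 1172 CPM at 25 weeks under the K/B.g7 and the B.g7 label, against 2141 CPM (K/B.g7 label) and 2079 CPM (B.g7 label) at 8 weeks. In fibroblast barcodes the summed MHC class I list was at 1592 CPM (K/B.g7 label) and 1853 CPM (B.g7 label) at 25 weeks, against 5525 CPM (K/B.g7 label) and 3313 CPM (B.g7 label) at 8 weeks, and its part in the values of mature T cells was not tested. Of 8 tested type I interferon genes 2 were above 0 and 0 were called.

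Receptor signalling and other groups changed little by call. Of 15 receptor signalling genes 12 were above 0 and 0 were called, and of the CD3 and receptor genes only Trac fell, by 2.65 on the log2 scale, among genes that the choice of cells used. Cd4, Cd8a, Cd8b1 and Trdc had log2 fold changes of -0.27, 0.08, 0.56 and 0.82 and did not pass. Of 9 tested proliferation genes 1 was above 0 and Birc5 fell. Mki67 or Top2a, markers of dividing cells, was detected in 13.7% and 3.62% of the cells labelled K/B.g7 at 8 and 25 weeks and in 9.35% and 5.83% of those labelled B.g7. Detection depends on depth, and these shares were not thinned. Median UMIs per cell were 2970.5 and 1378.5 at 8 and 25 weeks under the K/B.g7 label and 3286 and 2141.5 under the B.g7 label. Of 10 tissue residency genes, 7 were tested and 0 of these were above 0, with 0 called. Immediate early genes had 4 of 14 above 0 and 0 called, and ribosomal protein genes 1 of 13 above 0 and 0 called.

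**Figure D4:**
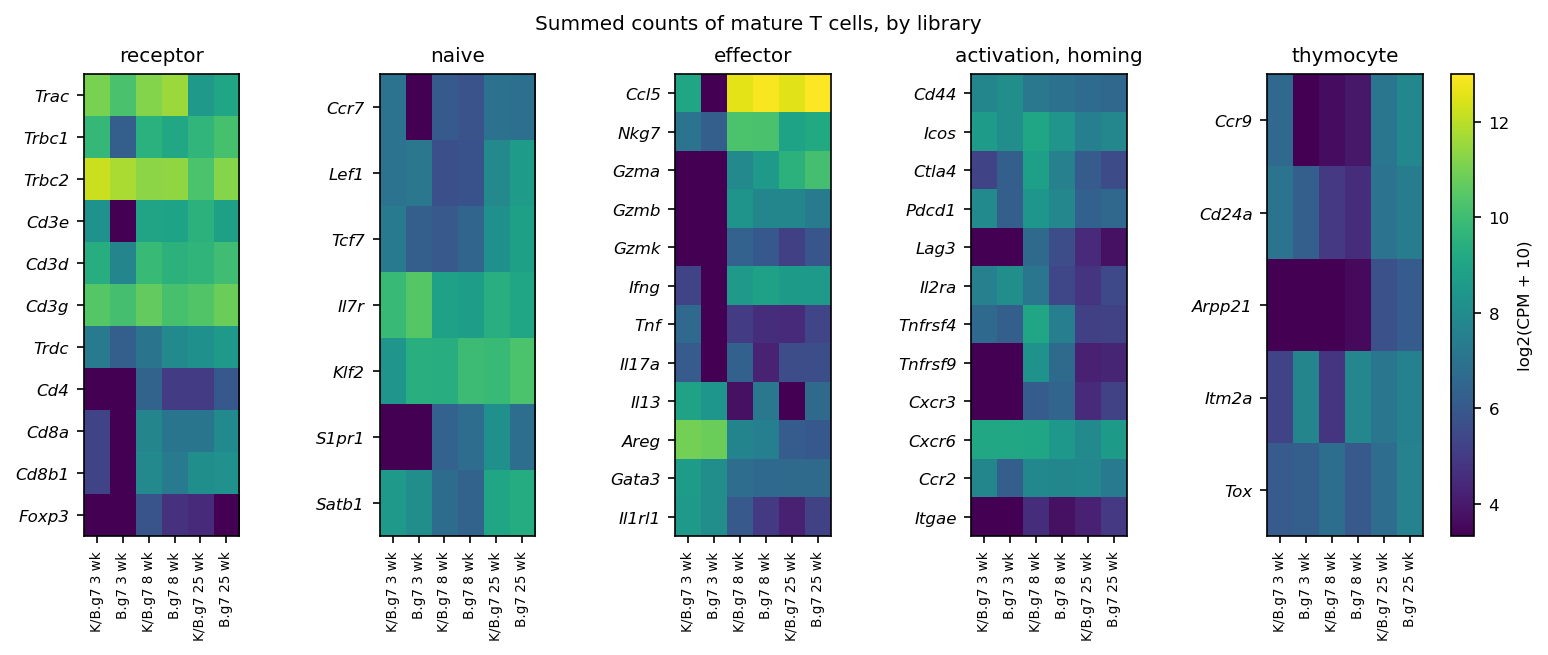
Level of 47 genes in mature T cells of each library, as log2 of CPM plus 10, in groups of receptor, naive, effector, activation and homing, and thymocyte genes (columns by age from 3 to 25 weeks, K/B.g7 left and B.g7 right at each age). Ccl5 was between 6053 and 8866 CPM at 8 and 25 weeks against 501 CPM or less at 3 weeks, and Areg was highest at 3 weeks.

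Within an age, with 1 library per genotype and no test, several of the largest ratios came from few cells. At 8 weeks the genes highest under the K/B.g7 label were Cxcl10 (237 CPM under the K/B.g7 label, against 48.0 CPM under the B.g7 label, 4.93-fold), Hist1h2ap, Havcr2, Il2ra and Cxcl2. Havcr2, the inhibitory receptor TIM-3, was at 89.6 CPM under the K/B.g7 label, against 19.5 CPM under the B.g7 label, and Il2ra was 4.07-fold higher under the K/B.g7 label. The genes lowest under the K/B.g7 label at 8 weeks, Gng13, Cst9, Krt7, Fxyd3 and Il13, came from at most 8 cells labelled B.g7. Fxyd3, an epithelial gene, had 3 UMIs under the K/B.g7 label, against 206 under the B.g7 label, of which 114 came from 1 cell. Il13 had 3 UMIs under the K/B.g7 label, against 78 under the B.g7 label, of which 69 came from 1 cell. The deepest cell of the 8-week B.g7 library held 48002 UMIs, 8.53% of that sum. At 25 weeks the genes highest under the K/B.g7 label were Itga8, Myh11, Ctgf, Cxcl2 and Cald1, with Myh11, smooth muscle myosin, at 174 CPM under the K/B.g7 label, against 6.70 CPM under the B.g7 label. Ccl1, a chemokine of activated T cells, had 0 UMIs under the K/B.g7 label, against 60 under the B.g7 label at 25 weeks, from 4 cells. At 3 weeks Hspa1a, Hspa1b and Hsph1, heat shock genes, were lower under the K/B.g7 label by ratios of 0.175, 0.130 and 0.200, and S100a6, a calcium-binding protein, was 8.20-fold higher, on 33918 UMIs under the K/B.g7 label, against 15042 under the B.g7 label.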

How the data were processed

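Per the labels' protocols, live single cells sorted from digested mitral valves were made into droplet libraries by the 10x Genomics 3′ protocol (version 2), 1 library per genotype and age, 6 in all. Per the submitters' processing notes, reads were processed with Cell Ranger 3.1.0 against mm10; which annotation and cell calling threshold applied is not given in the sources used here. Each deposited matrix holds raw UMI counts (whole numbers without normalization) of 31053 genes by barcode.

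From these, mature T cells were chosen by the rule in the report, and their counts were summed per library. Levels are CPM, a gene's UMIs over all UMIs of that sum, times 1000000. The sums were tested with edgeR 4.0.16 (quasi-likelihood test after TMM scaling and the filterByExpr filter, in R 4.3.3, FDR under 0.05 by Benjamini-Hochberg over all genes tested) with genotype and age in 1 model. Ages at which both libraries held at least 10 cells were used, which were all 3. Replication of genotype comes from the 3 ages, which leaves 2 residual degrees of freedom. The labels give the age that pairs the libraries, and same-age libraries deviated together from their genotype means, with r of 0.209, 0.258 and 0.205 at 3, 8 and 25 weeks over 3496 genes. Each standard error is the absolute log2 change divided by the root of F. For shares, 3 libraries were set against 3 in exact permutation tests that did not use the age pairs. Intervals are exact binomial at 95%, and 0 counts were given a floor of 3. Depth was matched by thinning cells to 1000 UMIs. Predicted doublets, the highest Scrublet scores (scanpy 1.11.5) at 0.8% per 1000 barcodes, were kept and left out as an alternative. Other alternatives were DESeq2 1.42.0, no filter on low counts, no replicate block, other thresholds, and each library left out. The test was tried on simulated counts.

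For each direction, up to 10 genes with the largest change past the threshold were named, if of 1 sign in each age or genotype and averaging 20 CPM or more, or the 5 of smallest p where none passed; of each list the 4 of highest mean level and any called; a fixed set of T cell genes; and at 1 age the 5 largest ratios. Only some of these are given with values; Tagln, Prg4, Hbb-bs, Hist1h2ap, Ly6a, Rasgrp2, Mmrn1, Il5 and Arg1 were added after their values were seen. The members and gene lists were chosen with earlier results of these data known. Sequences were read from the GENCODE M21 transcripts. Some named genes are not reported here. Other parameters are in the report. Python 3.11.15, scipy 1.17.1 and pandas 2.3.3 were used.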

Additional observations from a re-analysis of the deposited data

How the results depend on the processing

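The genotype count was 5 of 4253 genes tested. It was 0 of 4253 with DESeq2 (30 at an unadjusted p under 0.05) and 0 of 3496 with no replicate block (45). It was 0 of 5441 over ages with at least 20 cells (202) and 0 of 3966 without predicted doublets (115). Without cells that held a thymocyte list UMI it was 0 of 1965 (78). With no filter it was 55 of 14948 (18 higher, 37 lower), and with at least 5 T cell gene UMIs 25 of 3899 (23 higher, 2 lower). It was 0 to 49 with 1 library or age left out, over 1958 to 5830 genes tested. The 25 against 8 weeks count was 51 of 4253 genes tested. It was 39 of 4253 with no replicate block (38 shared), 27 of 4253 with DESeq2 and 123 of 14948 with no filter. Over ages with at least 20 cells it was 3 of 5441, and with at least 5 T cell gene UMIs 133 of 3899. Without cells that held a thymocyte list UMI it was 12 of 1965. It was 0 of 5625 without the 3-week B.g7 library and 27 of 5830 without the 3-week K/B.g7 library. In Cd8 cells the count of 0 was 0 with no replicate block and 2 with DESeq2. Acta2, Neurl3 and Fosb turned to log2 fold changes of -0.73, 0.47 and 1.29 over the 3 libraries whose V segments fit the label. These are K/B.g7 at 3 and 8 weeks and B.g7 at 25 weeks, so genotype and age cannot be told apart there. Of 263 other values of named genes at 25 against 8 weeks 174 kept their call and 89 lost it, and of 99 by genotype 78 kept their side, 10 lost a call, 8 gained one and 3 turned.

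Differences of shares (percentage points, K/B.g7 minus B.g7), none of which passed a test, turned sign as follows. Over the 3 libraries that fit the label they were 0.0556 for mature T cells, -3.97 for Cd4 and -14.1 for Cd8. There they were also -2.21 for Trdc, 86.1 for Trbv19 and -13.7 for Trbc1. These libraries were chosen by their V segments, Trbv19 among them, so the Trbv19 difference was fixed by that choice and tests nothing. Without cells that held a thymocyte list UMI the differences were 0.0526 for mature T cells and -3.15 for Cd8. Thinned cells gave -3.12 for Cd8, and leaving out predicted doublets -0.562 for Trdc. The alternatives of the 3 libraries, of the thymocyte list and, for all but the share of mature T cells, of ages left out as pairs were chosen after seeing the data. With 1 library or age left out the ranges were -0.847 to 0.347 for mature T cells, -4.75 to 4.81 for Cd4 (-4.72 to 2.98 with single libraries out), -9.22 to 9.12 for Cd8, -2.59 to 6.41 for Trdc (-2.27 to 3.81 with single libraries out), -0.714 to 3.35 for Foxp3, -34.5 to 24.8 for Trbv19 and 1.28 to 16.5 for Trbc1. Without both 25-week libraries mature T cells were at 0.0715 and Trdc at -2.30, and without both 3-week libraries Cd8 was at -2.37.

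The fit over all 6 libraries was the one reported, and none could be fitted for Cd4 cells. With 11 to 19 cells at 3 weeks and 10 to 17 Trbv UMIs at 25 weeks, only large differences could be seen there. The cause of these shifts was not tested.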
